A study of Populus tremula x Populus alba with 14 samples.

Results

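A set of 245 poplar genes had a higher transcript level in outer than in inner bark in every one of 7 numbered stem pairs. They were drawn from a table of 41335 genes. Counts were divided by the library total to give CPM, the count per 1000000 counts, and the log2 of (outer CPM + 1)/(inner CPM + 1) was taken in each pair. A gene was kept when this ratio was at least 1, a doubling, in all 7 pairs and its mean over the 7 outer libraries was at least 10 CPM. A limit of 300 genes in the rule was not reached. The genes were thus chosen on the outer over inner ratios themselves, so those ratios are described below without a test.

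Bark was taken from trees of the clone INRA 717-1B4, a hybrid of P. tremula x P. alba (Populus). The trees stood in a greenhouse and were outdoors in the growing season. Old outer bark (4 libraries) and old inner bark (4 libraries) came from stems of 6 to 8 mm in diameter. Young outer bark (3 libraries) and young inner bark (3 libraries) came from stems of 4 to 5.5 mm. The labels give outer bark as phellem with phellogen and inner bark as secondary phloem with vascular meristem. All libraries are labelled WT and belong to this 1 clone, and the labels give no transgene or treatment. Stems are numbered 1 to 4 in the old group and 1, 2 and 4 in the young group. Library totals were between 11944485 and 15980636 counts. Outer and inner libraries that carry the same WT number were taken as a pair, although the labels do not state that they come from 1 stem or that different numbers are separate trees. Spread between libraries, on which every p-value here rests, may therefore be technical in part. The inner and outer libraries of young stem 4 carry title numbers 9 and 20, while the other pairs carry consecutive ones. Title numbers are 1 to 8 in old and 9 to 20 in young libraries. What these numbers stand for is not given, and age cannot be told apart from them. Stem 1 stood apart at both ages: the chi-square per degree of freedom between counts of libraries of 1 group was 63.5 to 161 in pairs with stem 1 and 18.6 to 38.9 in the other pairs. Counts that rest on stem 1 are therefore given also without it. For the size of the list and its share of counts that setting was added after seeing the data, and for the age tests it had been chosen with earlier results of these data known.

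Outer bark of a woody stem is the periderm. Its meristem, the phellogen, divides outward to give phellem, the cork tissue, whose cells lay suberin into their walls and then die. Suberin is a polyester of long fatty acids and glycerol with phenolic components, laid down together with waxes, and it limits loss of water and entry of pathogens. Inner bark holds the phloem, which carries sugars, and lies next to the vascular cambium. No gene names stand beside the identifiers in the files, where the symbol repeats the identifier for 100% of the genes. The genes are therefore described by identifier, level and pattern, and the lists of suberin, wax, lignin, phloem and other genes planned by product name could not be filled. The labelled tissues could for the same reason not be checked against their defining markers. A bulk level cannot tell more cells of a type from more RNA per cell.

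The 245 genes are 1.51% of the 16271 genes with a mean of at least 10 CPM in outer bark. The same rule turned round, with inner over outer bark, kept 38 genes, 0.238% of the 15991 genes with a mean of at least 10 CPM in inner bark. A further 25 genes passed the ratio in every pair but were below 10 CPM in outer bark. The ratio averaged over the 7 pairs had a median of 1.89 across the 245 genes, which is 3.72-fold. It lay between 1.18 and 3.52, and it was at least 2 for 103 genes and at least 3 for 14 genes. No gene had a ratio of at least 2 in every pair (0 of 245), and 18 had a ratio of at least 1.5 in every pair. Mean outer CPM lay between 10.0 and 992, with a median of 45.6, and 66 genes had a mean of at least 100 CPM. In inner bark the median of the means was 11.2 CPM. In some inner library 55 of the genes had fewer than 10 counts and 7 had none, so their ratios there rest on few reads.

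Stem 1 of both ages had the weakest ratios and set the limit of the list. The median log2 ratio over the 245 genes was 1.53 in old stem 1, 2.02 in old stem 2, 2.05 in old stem 3 and 2.08 in old stem 4. It was 1.22 in young stem 1, 2.30 in young stem 2 and 1.93 in young stem 4. In fold terms, the outer level was 2.34 times the inner level in young stem 1, against 4.91 times in young stem 2. For 182 genes (74.3%) the lowest of the 7 ratios was that of young stem 1, and for 50 it was that of old stem 1. The other 5 pairs together held the lowest ratio of the remaining genes, with 0 to 4 genes each. The weak ratios of stem 1 were not confined to the list: 3.52% of the genes at 10 CPM or more reached a ratio of 1 in young stem 1 and 3.76% in old stem 1, against 7.31% to 8.91% in the other 5 pairs. With the limit of 300 genes set aside, 405 genes met the rule without young stem 1, 399 without old stem 1 and 654 without both, of which 244 were among the 245.

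**Figure D1:**
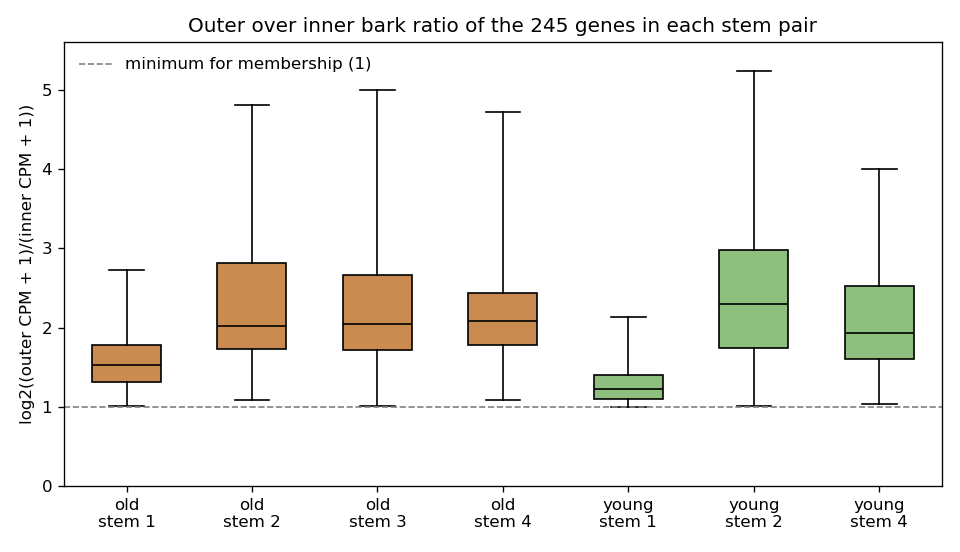
Log2 ratio of outer over inner bark for the 245 genes in each stem pair, old stems at the left. Boxes give the quartiles, the inner line the median and the whiskers the full range. The medians of old stem 1 (1.53) and young stem 1 (1.22) lie below those of the other 5 pairs (1.93 to 2.30).

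At the threshold, Potri.005G186800 and Potri.007G011500 were just inside, with lowest ratios of 1.0039 in young stem 1 and 1.0055 in old stem 1. Potri.008G170300 and Potri.008G101100 were just outside, with lowest ratios of 0.9996 in old stem 1 and 0.9992 in young stem 1. The boundary thus passed between genes of nearly equal values. Potri.008G101100 had a mean ratio of 1.38 over the 7 pairs and Potri.005G186800 one of 1.77.

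Together the 245 genes took 1.71%, 3.67%, 2.73% and 2.71% of all counts in the outer bark of old stems 1 to 4, and 0.539%, 0.937%, 0.666% and 0.613% in the inner bark of these stems. In young stems 1, 2 and 4 they took 1.64%, 2.99% and 2.74% in outer bark and 0.668%, 0.744% and 0.747% in inner bark. The outer share was lowest in stem 1 at either age. The inner share of stem 1 lay below that of the other stems of its age as well. The mean outer share was 2.71% ± 0.80 in old (SD, n = 4) and 2.46% ± 0.72 in young stems (SD, n = 3), a gap smaller than either SD. Without stem 1 the means were 3.04% ± 0.55 in old (SD, n = 3) and 2.86% ± 0.17 in young outer bark (SD, n = 2).

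**Figure D2:**
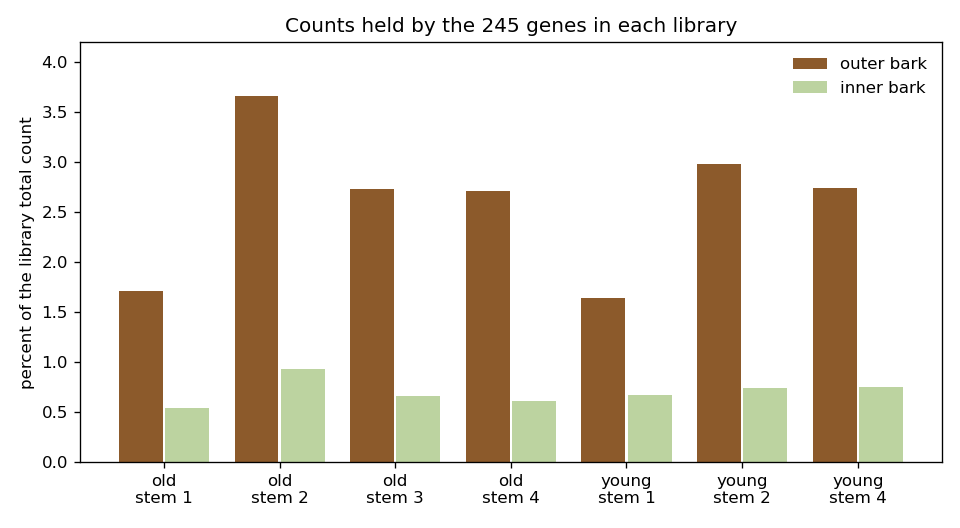
Percent of each library's total count held by the 245 genes, outer beside inner bark in each of the 7 stems. The outer bars of stem 1 (1.71% in old and 1.64% in young) are the lowest of their age, and the inner bars lie between 0.539% and 0.937%.

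Levels of different stems overlapped between the layers for most of the genes. In 79 of the 245 genes (32.2%) all 7 outer CPM values were above all 7 inner values. Among all 16271 genes at 10 CPM or more, 279 (1.71%) showed this. Since the rule used these ratios, nothing is read from that contrast. In the other 166 genes the outer value of some stem lay at or below the inner value of another, although each stem by itself had the outer layer at least doubled.

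The genes also differed widely between stems in one layer, a spread that the rule did not set. Whether a choice by ratio favours such genes was not tested. The SD of log2(CPM + 1) over the 7 outer libraries had a median of 0.80 across the 245 genes, against 0.41 across the 16271 genes. Of the 245 genes, 229 were above that value of 0.41. Over the 7 inner libraries the medians were 0.79 for the 245 genes and 0.43 for the 16271 genes. The 245 genes had fewer inner counts than the rest (median of 11.2 against 32.8 mean CPM), and the part of counting error in the inner value was not tested. In outer bark their median level was not lower (45.6 against 33.7 CPM). Without stem 1 the outer medians were 0.54 and 0.32, and the inner medians 0.69 and 0.39. All of these SD also hold any difference between the ages. Within old stems the medians were 0.69 and 0.35 in outer and 0.59 and 0.33 in inner bark. Within young stems they were 0.57 and 0.24 in outer and 0.70 and 0.25 in inner bark.

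The medians of all 4 old stems deviated the same way in both layers, and those of the 3 young stems did not. Relative to the mean of each gene over 7 outer libraries, the median of the 245 genes was -0.71 in old stem 1, 0.57 in old stem 2 and -0.29 in young stem 1 on the log2 scale. Outer CPM was highest in old stem 2 for 86 genes (35.1%, against 12.5% of the 16271 genes) and lowest in old stem 1 for 113 (46.1%, against 37.3%). In inner bark the corresponding medians were -0.32 in old stem 1, 0.34 in old stem 2 and 0.35 in young stem 1. Young stem 1 was thus below the mean in outer and above it in inner bark. Young stem 2 was near the mean in outer bark (0.08) and lowest of the 7 in inner bark (-0.47). Young stem 4 was near the mean in both (0.07 and -0.01). Old stems 3 and 4 were above it in outer (0.23 and 0.30) and less so in inner bark (0.05 and 0.14). Across the 245 genes, the deviation of an outer library from its group mean correlated with that of the inner library of the same number at r of 0.78 to 0.91 in the 7 stems. Genes are not independent replicates, and over the 16271 genes these values were 0.74 to 0.89. Each group mean holds stem 1, which stood apart in both layers, so stem 1 enters the deviations of the other stems. No r was computed between layers of unlike numbers. These values therefore cannot show that each numbered pair deviated together.

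**Figure D3:**
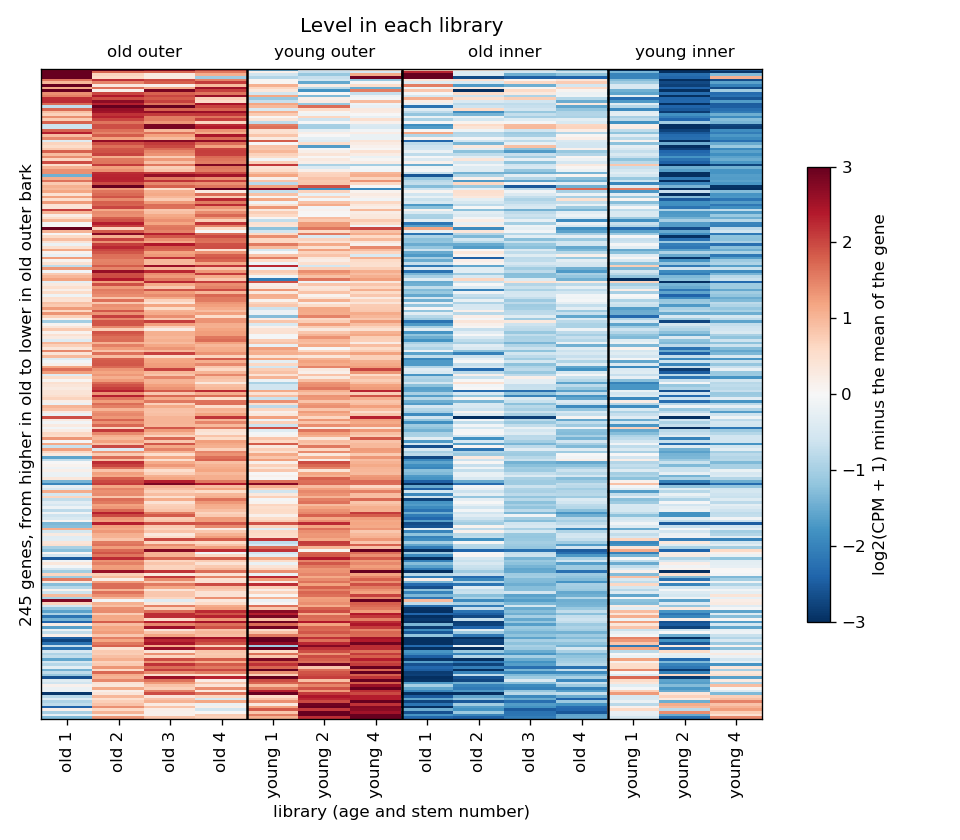
Level of the 245 genes (rows) in the 14 libraries (columns), as log2(CPM + 1) minus the mean of the gene over all libraries, with rows ordered by the old minus young fold change in outer bark. Outer libraries are mostly above and inner libraries below the mean. Old stem 1 is paler than the other old stems in outer bark over most genes.

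Potri.018G074500 had the largest mean ratio, 3.52. It was at 4.63, 86.9, 193.9 and 170.9 CPM in the outer bark of old stems 1 to 4, and at 1.38, 2.12, 9.16 and 11.5 CPM in their inner bark. In young stems 1, 2 and 4 it was at 328, 137.03 and 173 CPM in outer and 84.9, 2.64 and 15.8 CPM in inner bark. Old stem 1 was lowest of all stems in both layers and young stem 1 highest in both, and the inner level of young stem 1 was close to the outer level of old stem 2. Its ratio was 1.24 in old stem 1, between 3.78 and 4.82 in the other old stems, and 1.94, 5.24 and 3.37 in young stems 1, 2 and 4. Its levels in old and young stems overlapped in both layers. The old minus young fit gave -0.84 log2 units in outer and -2.46 in inner bark, with SE of 0.91 and 1.09 (edgeR adjusted p = 0.55 and 0.139). By DESeq2 the inner change passed (-2.47, adjusted p = 0.0481).

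Potri.004G234900 was next, with a mean ratio of 3.38. It was at 2.50, 63.2, 91.5 and 101 CPM in old outer and 0.0767, 1.59, 7.10 and 9.96 CPM in old inner bark of stems 1 to 4. Young outer bark held 137.3, 95.3 and 84.2 CPM, and young inner bark 42.1, 2.00 and 4.82 CPM in stems 1, 2 and 4. The lowest inner value, in old stem 1, is a single count. As with Potri.018G074500, old stem 1 was lowest and young stem 1 highest in either layer.

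The genes with the highest CPM had smaller ratios. CPM is not corrected for transcript length, so these ranks are of counts and not of levels between genes. Potri.017G114600 was at 1020, 1464, 1082 and 785 CPM in old outer and 243, 313, 238 and 149.9 CPM in old inner bark of stems 1 to 4. It was at 307, 1226 and 1064 CPM in young outer and 119, 274 and 277 CPM in young inner bark of stems 1, 2 and 4. All outer values except that of young stem 1 were above all inner values. Its mean of 992 CPM ranked at 31 among all genes in outer bark.

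Potri.004G162400 was at 774, 1747, 1006 and 594 CPM in old outer and 256, 525, 259 and 123 CPM in old inner bark. In young stems it was at 78.6, 1028 and 803 CPM in outer and 34.2, 144 and 213 CPM in inner bark. Young stem 1 was the lowest of its layer in both. The 10 genes with the most counts made up 25.4% of the summed mean outer CPM of the 245.

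Other genes of the list were nearly level from stem to stem. Potri.013G069700 had the smallest spread in outer bark, an SD of 0.14 on the log2 scale. It was at 83.0, 93.5, 84.8 and 95.5 CPM in old outer and 24.6, 28.6, 22.7 and 19.9 CPM in old inner bark. It was at 71.5, 81.8 and 86.4 CPM in young outer and 33.1, 20.2 and 23.6 CPM in young inner bark. No inner value came near an outer one.

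Potri.004G059300 was similar at a lower level, with an SD of 0.21. It was at 10.1, 11.7, 8.92 and 14.01 CPM in old outer and 3.61, 2.12, 2.14 and 2.43 CPM in old inner bark. Young outer bark held 10.7, 13.4 and 12.3 CPM and young inner bark 4.64, 3.93 and 3.46 CPM. In the age tests described next, neither gene passed in either layer. The old minus young difference in outer bark was 0.26 log2 units for Potri.013G069700 and -0.02 for Potri.004G059300, with SE of 0.17 and 0.24 (edgeR adjusted p = 0.326 and 0.957). Without old inner replicate 1, Potri.004G059300 passed in inner bark (-0.85 log2 units, edgeR adjusted p = 0.0397), against -0.57 with it (0.242).

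**Figure D4:**
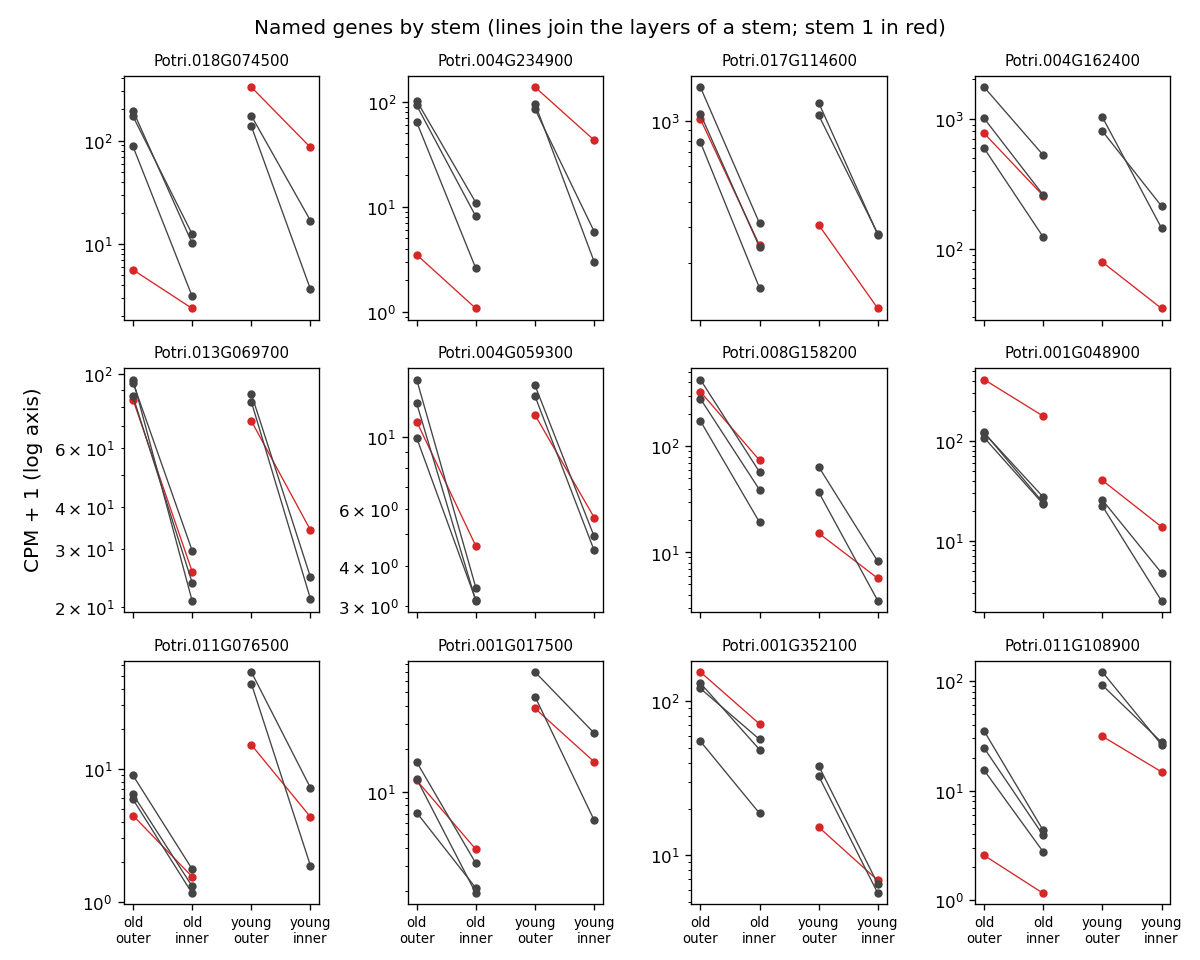
CPM + 1 on a log axis for 12 named genes, with outer left of inner bark and old left of young stems. Each line joins the layers of 1 stem and stem 1 is red. Every line falls toward inner bark, while the height of the lines differs between stems, most for Potri.018G074500 and least for Potri.013G069700.

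Whether these genes also differed with stem age was tested in each layer by itself. The age difference was not itself used in choosing them, but the minimum of 10 CPM was set on the mean over both ages. Of the 245 genes, 7 had a mean under 10 CPM in old outer and 14 in young outer bark, and they entered through the age in which they were higher. Each fit held the 7 libraries of 1 layer, 4 old and 3 young, and p-values were adjusted over all genes tested by the Benjamini-Hochberg method with a threshold of 0.05. In outer bark, 30 of the 245 genes rose in old stems and 2 fell, by edgeR's quasi-likelihood test. Among all 26740 genes tested in outer bark, 5.57% rose and 8.56% fell, and among the 16264 of them at 10 CPM or more, 7.5% rose and 6.84% fell. Of the 245 genes, 12.2% rose and 0.816% fell. Among the 224 with at least 10 CPM in both ages, 23 rose and 1 fell. The share over all genes with at least 10 CPM in both ages was not counted, so these counts are not compared with one. The median log2 fold change of the 245 genes was 0.33, against 0.06 over all genes tested and 0.14 over those at 10 CPM or more.

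The 30 genes that rose had log2 fold changes of 1.00 to 3.08, with a median of 1.65. In 27 of them all old CPM values were above all young ones. That count rests on the same values as the calls and adds no support to them. Its share over all genes called was not counted. A fitted change of at least 1 log2 unit in either direction was found for 82 of the 245 genes (33.5%), and for 19.1% of the genes at 10 CPM or more. The share called in either direction was 13.1%, against 14.3% at 10 CPM or more and 14.1% of all genes tested. At an unadjusted p under 0.05, edgeR placed 51 higher and 17 lower in old stems (27.8%, against 34.6% at 10 CPM or more). Of the 16264 genes at 10 CPM or more, 3220 were higher and 2400 lower. All old CPM values were above all young values in 33 of the 245 genes (13.5%, against 14.7% at 10 CPM or more), and below them in 9 (3.67%, against 17.1%).

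The outer bark counts rested on single libraries. Of the 245 genes, those that rose numbered 48 without old outer replicate 1, but 3 and 7 when old outer replicate 2 or 4 was left out. They numbered 1 and 3 when young outer replicate 2 or 4 was left out. Those that fell numbered 5 and 1 when old outer replicate 1 or 2 was left out, 8 without young outer replicate 1, and 0 when young outer replicate 2 or 4 was left out. With 1 library left out, 0.408% to 19.6% of the 245 genes rose, against 0.123% to 16.0% of the genes at 10 CPM or more, and 0% to 3.27% fell, against 0.289% to 13.9%. Without stem 1 of both ages, 61 rose (24.9%, against 18.5% at 10 CPM or more) and 21 fell (8.57%, against 17.8%). In either direction that was 33.5% of the 245 genes, against 36.3% at 10 CPM or more and 34.0% of all genes tested. In each fit with 1 library left out, the share of the 245 genes that rose was above that at 10 CPM or more, though on as few as 1 gene. The higher share that rose was not kept by every model. With all 14 libraries in 1 edgeR fit, 7.76% of the 245 genes rose, against 11.7% at 10 CPM or more. With the stem as a random effect in limma, 11.8% rose, against 12.5%. By DESeq2 on the outer libraries, 18.0% rose, against 15.5%.

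Potri.008G158200 rose most in old outer bark among genes whose ages did not overlap. It was at 325, 424, 279 and 172 CPM in old outer bark of stems 1 to 4, and at 14.2, 36.0 and 63.1 CPM in young outer bark of stems 1, 2 and 4. The fitted log2 change was 3.08 ± 0.61 (SE, edgeR's adjusted p = 0.0241, and 2.40e-06 to 0.106 over all alternatives). Leaving out old outer replicate 2 ended the call (edgeR adjusted p = 0.0686), as did leaving out young outer replicate 2 or 4 (0.0973 and 0.0579). In inner bark it was at 72.8, 56.2, 37.9 and 18.3 CPM in old and 4.70, 2.50 and 7.23 CPM in young stems, a fitted change of 3.36 ± 0.61 log2 units (SE, edgeR's adjusted p = 0.0135). That call was lost without young inner replicate 2 (adjusted p = 0.0532). Every old value was above every young value in either layer, and the inner value of old stem 1 exceeded all 3 young outer values.

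Potri.001G048900 was at 412, 119.8, 121 and 107 CPM in old outer and 39.3, 21.3 and 24.7 CPM in young outer bark, a fitted change of 2.95 ± 0.67 log2 units (SE, edgeR's adjusted p = 0.0322). The call was lost without old outer replicate 2 or 4 and without any 1 of the young outer replicates, with adjusted p of 5.61e-05 to 0.124 over all alternatives of edgeR and the other tools. Old stem 1 stood far above the other old stems. In inner bark it was at 176.7, 26.4, 23.1 and 22.4 CPM in old and 12.8, 1.4996 and 3.76 CPM in young stems, and the fitted change of 3.55 log2 units did not pass (SE 1.15, edgeR's adjusted p = 0.0638). It passed without stem 1 of both ages (3.15, edgeR's adjusted p = 0.00555).

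The 2 genes that fell in old outer bark were Potri.011G076500 and Potri.001G017500. Potri.011G076500 averaged 5.41 CPM in old and 36.4 CPM in young outer bark, so it met the minimum of 10 CPM through the young stems and its lower level in old stems is no support for a fall of the list. Potri.011G076500 was at 3.44, 5.41, 4.88 and 7.90 CPM in old outer and 14.1, 42.7 and 52.4 CPM in young outer bark, a fitted change of -2.70 ± 0.48 log2 units (SE, edgeR's adjusted p = 0.0196). It no longer passed when old outer replicate 2 (edgeR adjusted p = 0.0654) or young outer replicate 2 or 4 (0.0787 and 0.0760) was left out. In old inner bark it was under 1 CPM in all 4 stems, with 0.537, 0.303, 0.153 and 0.753 CPM, against 3.33, 0.857 and 6.17 CPM in young inner bark. The fitted log2 change there was -2.91 ± 0.74 (SE, edgeR's adjusted p = 0.0321), but leaving out old inner replicate 2, 3 or 4, or young inner replicate 4, ended that call. Adjusted p reached 0.367 over all alternatives, in limma's fit of all 14 libraries.

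Potri.001G017500 was at 11.01, 15.2, 11.3 and 6.11 CPM in old outer and 37.6, 45.8 and 68.7 CPM in young outer bark, a fitted change of -2.12 ± 0.36 log2 units (SE, edgeR's adjusted p = 0.0176). With young outer replicate 2 or 4 left out it did not pass (edgeR adjusted p = 0.0675 and 0.0693). In inner bark it was at 2.92, 2.12, 0.916 and 1.09 CPM in old and 15.2, 5.28 and 24.8 CPM in young stems, a fitted change of -3.003 ± 0.63 log2 units (SE, edgeR's adjusted p = 0.019). Leaving out old inner replicate 2 ended the call (edgeR adjusted p = 0.0525), as did leaving out young inner replicate 4 (0.0764). Old and young values did not overlap in either layer.

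In inner bark 243 of the 245 genes passed the filter on low counts. Of these, 13 rose in old stems and 17 fell. Among all 25929 genes tested in inner bark, 9.02% rose and 12.2% fell, and among the 16246 at 10 CPM or more in outer bark, 11.6% rose and 9.41% fell. Of the 243 genes, 5.35% rose and 7.00% fell, both below those shares. In either direction this came to 12.3%, against 21% at 10 CPM or more and 21.2% of all genes tested. At an unadjusted p under 0.05, edgeR placed 33 higher and 31 lower in old stems (26.3%, against 39% at 10 CPM or more). Of the 16246 genes at 10 CPM or more, 3767 were higher and 2575 lower. Their median log2 fold change was 0.13, against 0.14 over the genes at 10 CPM or more. A fitted change of at least 1 log2 unit was found for 93 genes (38.3%, against 21.6%). Old CPM values were all above young ones in 23 genes (9.47%, against 19.6%) and all below in 22 (9.05%, against 16.4%). The genes that rose had log2 fold changes between 1.05 and 3.36, and those that fell between -3.43 and -1.11.

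The inner bark counts moved with single libraries too. Those that rose numbered 8 without old inner replicate 2, and 33, 5 and 2 when young inner replicate 1, 2 or 4 was left out. Those that fell numbered 8 to 10 when old inner replicate 2, 3 or 4 was left out, and 11 and 1 when young inner replicate 2 or 4 was left out. With 1 library left out, 0.823% to 13.6% of the genes of the list rose, against 0.979% to 18.3% of those at 10 CPM or more, and 0.412% to 7.82% fell, against 2.14% to 15.7%. Without stem 1 of both ages, 54 of 240 rose (22.5%, against 23.3% at 10 CPM or more) and 23 fell (9.58%, against 19.9%). In either direction that was 32.1%, against 43.2% at 10 CPM or more and 39.6% of all genes tested.

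Of the 243 genes tested in both layers, 51 had an age call in at least 1 layer (21.0%, against 24.6% of the 16245 genes at 10 CPM or more tested in both). Both layers rose in 9 genes (3.70%, against 5.95%) and fell in 2 (0.823%, against 4.77%). In 21 genes outer bark rose without an inner call (8.64%, against 1.56%), and in 0 it fell without one (2.07%). Inner bark rose without an outer call in 4 genes (1.65%, against 5.6%) and fell without one in 15 (6.17%, against 4.63%). A call in 1 layer and not in the other does not show that the layers differed, and that difference was not tested because it is built from the ratios of the rule. The layers come from the same numbered stems and their fits are not independent.

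**Figure D5:**
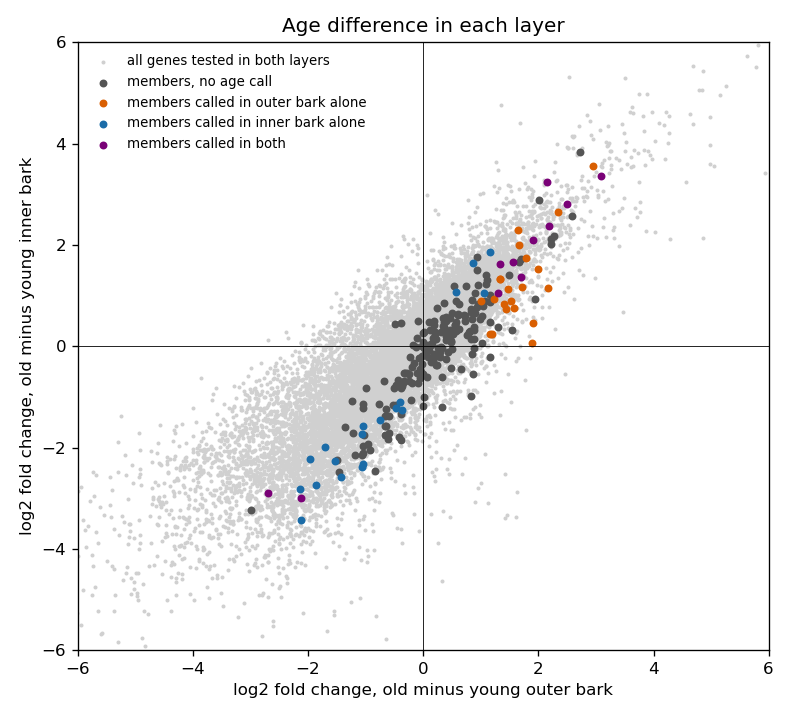
Log2 fold change of old minus young stems in outer bark (x axis) and inner bark (y axis). Grey points are all genes tested in both layers, larger points the 243 genes of the list tested in both, coloured by edgeR call; points beyond 6 log2 units are not drawn. The 9 genes that rose in both layers lie at the upper right and the 2 that fell in both at the lower left.

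Potri.001G352100 was among the genes that rose in old inner bark. It was at 70.3, 47.6, 55.6 and 17.7 CPM in old inner and 5.88, 5.50 and 4.67 CPM in young inner bark, a fitted change of 3.23 ± 0.51 log2 units (SE, edgeR's adjusted p = 0.0102). The call was lost without young inner replicate 4 (adjusted p = 0.0519). In outer bark it was at 154, 130.5, 120.3 and 54.1 CPM in old and 14.3, 37.2 and 31.8 CPM in young stems, with a fitted change of 2.15 ± 0.52 log2 units (SE, edgeR's adjusted p = 0.0382). The outer call was lost without old outer replicate 2 or 3 or any 1 of the young outer replicates, with edgeR adjusted p up to 0.122 in those fits and 0.16 over all alternatives.

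Potri.011G108900 fell most in old inner bark. It was at 0.153, 3.33, 2.90 and 1.76 CPM in old inner and 13.8, 25.3 and 26.7 CPM in young inner bark, a fitted change of -3.43 ± 0.71 log2 units (SE, edgeR's adjusted p = 0.0183). The call was lost without young inner replicate 2 or 4 (edgeR adjusted p = 0.0638 and 0.0702). In outer bark it was at 1.56, 34.1, 23.6 and 14.4 CPM in old and 30.4, 120.4 and 90.7 CPM in young stems, which overlapped. Its outer change of -2.11 ± 0.86 log2 units did not pass (SE, edgeR's adjusted p = 0.132, 0.0405 by DESeq2 and 0.0105 without stem 1 of both ages).

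The strength of the layer ratio at each age is described without a test. The mean ratio was higher in old than in young stems for 160 genes and lower for 85. Its median was 1.97 over old and 1.80 over young pairs. Without stem 1 of both ages the ratio was higher in old stems for 124 genes and lower for 121, and the medians were both 2.07. All 4 old ratios were above all 3 young ones for 20 of the 245 genes and below them for 0. Among the 16271 genes at 10 CPM or more these shares were 8.92% and 18.7%. The 245 genes had to pass the ratio in young stem 1, where it was weakest, and nothing is read from these counts.

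In the authors' deposited table for old stems, edgeR's adjusted p was below 0.05 with outer bark higher for 236 of the 245 genes, against 6.2% of all genes listed. In the authors' deposited table for young stems this held for 184 of the 245 genes, against 2.82% of all genes listed. DESeq called 201 of them in the authors' deposited table for old stems (3.14% of all) and 116 in the authors' deposited table for young stems (1.49% of all). These tables compare the layers the rule used, so the counts describe the list only.

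By the numbering of the identifiers, in which the digits before the G give the chromosome of Populus trichocarpa and the next digits the order along it, 242 of the genes lay on a chromosome and 3 on unplaced sequence. They were spread over all 19 chromosomes, from 3 genes on chromosome 16 (0.542% of its genes at 10 CPM or more) to 39 on chromosome 1 (2.02%), with the highest share, 2.63%, on chromosome 13. None had a member of the list at the next number on either side (0 of 242). Of 250 such neighbours at 10 CPM or more, 0 were members, against 1.4998% of all placed genes at that level. Within 5 numbers, 15 genes (6.20%) had another member. Under the rule without stem 1, 31 adjacent pairs were found among 647 placed genes. For these pairs and for the 15 genes no share over all placed genes was worked out, and nothing is read from them. The files give no coordinates. Genes with near-identical copies are uncertain, because the counting could divide their reads. The counts came from an unstranded protocol, so reads of overlapping antisense genes cannot be told apart.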

How the data were processed

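RNA sequencing counts of 14 libraries were used. The authors deposited read counts per gene, not normalized, per the file headers. Per the submitters' processing notes the tools were Bowtie, TopHat, HTSeq, Cufflinks, CASAVA, Trimmomatic, edgeR and DESeq. Their roles, versions and genome build are not given in the sources used here. Comparison tables deposited by the authors hold log2 fold changes (inner over outer), p-values and adjusted p-values per the file headers. Their normalized values, deposited as a score rounded to whole numbers, were not used. 0 columns were left without a sample.

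The genes and lists were chosen with earlier results of these data known. Age was tested with edgeR 4.0.16 (R 4.3.3) on the 7 libraries of each layer, with filterByExpr, TMM factors, robust quasi-likelihood F tests and Benjamini-Hochberg adjustment over all genes. Layers were fitted apart because deviations of outer and inner libraries of a number correlated (r of 0.74 to 0.89 over 16271 genes). No r was computed for unlike numbers. SE was taken as the fold change divided by the root of F. DESeq2 1.42.0 and limma 3.58.1 were alternatives. Every 2 libraries of 1 group differed by more than sampling noise. Simulated data had 100 genes changed 4-fold and 100 changed 2-fold. The outer fit (26199 genes) recovered 43% of 4-fold and 0% of 2-fold changes, and the inner fit (25561 genes) 60% and 3%. Of the calls, 2.27% and 7.35% were false. In the data 3779 and 5505 genes were called. The adjusted threshold is stricter when few genes change, so the recovery in the data was not measured.

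Identifiers named are the first 2 by mean ratio, outer CPM, smallest outer SD, distance to the threshold on each side, and age fold change in each direction and layer among called genes without overlap between ages. With no annotation used here, gene lists, markers and promoter motifs were void.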

Additional observations from a re-analysis of the deposited data

Results flagged for a closer look

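Values of the old group of 4 stems were examined for 1 value far from the other 3, in 45 sets of 4 values: the share of counts, the median ratio and the CPM and ratios of the named genes. Chance gives about 1 such set in 20, the sets share libraries, and 4 were found, all in old stem 1. The median log2 ratio of the 245 genes was 1.53 in old stem 1, against 2.02 to 2.08 in old stems 2 to 4. Potri.001G048900 reached 412 CPM in the outer and 176.7 CPM in the inner bark of old stem 1, against 107 to 121 CPM and 22.4 to 26.4 CPM in the other old stems. The log2 ratio of Potri.011G076500 was 1.53 in old stem 1, against 2.30 to 2.35 in the other old stems.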

How the results depend on the processing

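The number of genes meeting the ratio rule, before its limit of 300, was 245. It was 85 with a pseudocount of 5 and 18 with a minimum ratio of 1.5, and 245 to 405 with 1 pair left out, highest without young stem 1. Without stem 1 of both ages, added after seeing the data, it was 654. It stayed within 1.5 times 245 with TMM-scaled CPM (197), a pseudocount of 0.5 (308) and mean outer CPM of at least 5 (265) or 20 (194).

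Over all genes, edgeR called 3779 in outer and 5505 in inner bark. The outer count was 7526 with DESeq2, 6093 with all 14 libraries, 9166 without stem 1 of both ages and 125 to 7285 with 1 library left out. The inner count was 8758 with DESeq2, 10421 without stem 1 of both ages and 861 to 8056 with 1 library left out. Shares in brackets are of the genes of the list, against those at 10 CPM or more in the same fit. Among the 245 genes, the outer count higher in old (30) was 19 with all 14 libraries (7.76%, against 11.7%). It was 29 with all 14 libraries and the stem as a random effect (11.8%, against 12.5%). It was 61 without stem 1 (24.9%, against 18.5%). With 1 library left out it was 1 to 48 (0.408% to 19.6%, against 0.123% to 16.0%). The outer count lower in old (2) was 14 with DESeq2 (5.71%, against 13.2%) and 7 with the random effect (2.86%, against 11.1%). It was 6 with all 14 libraries (2.45%, against 10.9%) and 21 without stem 1 (8.57%, against 17.8%). With 1 library left out it was 0 to 8 (0% to 3.27%, against 0.289% to 13.9%). The inner count higher in old (13) was 26 with DESeq2 (10.7%, against 19.3%) and 23 with all 14 libraries (9.39%, against 18.9%). It was 54 without stem 1 (22.5%, against 23.3%). With 1 library left out it was 2 to 33 (0.823% to 13.6%, against 0.979% to 18.3%). The inner count lower in old (17) was 29 with DESeq2 (11.9%, against 15.0%) and 10 with the random effect (4.08%, against 12.1%). With 1 library left out it was 1 to 19 (0.412% to 7.82%, against 2.14% to 15.7%). The cause was not tested.

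Numbers 1, 2 and 4 occur at both ages. Over the 16271 genes the deviations of same-numbered old and young stems correlated at r of -0.06, 0.23 and -0.18 in outer and -0.14, 0.07 and -0.07 in inner bark. Over the 245 genes these were -0.28, 0.54 and -0.49 in outer and -0.19, 0.62 and -0.43 in inner bark. Over the 245 genes number 2 deviated together and numbers 1 and 4 did not. Over the 16271 genes no r was above 0.23, so the numbers were not taken as pairs. With the number as a replicate block, 222 genes were called in outer and 1367 in inner bark. Among the 245 genes, 1 rose (0.408%, against 0.184% at 10 CPM or more) and 0 fell (against 0.818%) in outer bark. In inner bark 5 rose (2.06%, against 1.68%) and 5 fell (2.06%, against 3.19%).

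Of 475 fold changes of named genes under the alternatives, 402 kept direction and side of the threshold, 41 lost and 17 gained a call, and 15 changed sign, none of them called. Potri.017G114600 was at -0.058 in outer and -0.28 in inner bark without stem 1; with 1 library left out it was at -0.017 to 0.77 in outer bark and -0.24 to 0.32 in inner bark. Potri.004G059300 in outer bark was at 0.11 with the block and -0.15 to 0.10 with 1 library left out. Potri.004G234900 in inner bark was at 0.81 without stem 1 and -2.43 to 0.37 with 1 library left out. Potri.013G069700 in inner bark was at 0.013 with the block, 0.077 without stem 1 and -0.15 to 0.11 with 1 library left out. With 4 against 3 libraries, 2-fold age changes were rarely recovered in simulated data. Far fewer genes changed there than were called in the data, so that recovery does not give the power of these tests.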

Other observations

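The 38 genes of the reversed rule, higher in inner bark in every pair, were tested for age in the same fits. Their minimum of 10 CPM was set on the inner mean over both ages. A gene could thus enter through the age in which it was higher, and how many did so was not counted. The counts below describe these genes, and nothing is read from their direction. In old outer bark 0 of the 38 rose and 16 fell by edgeR's quasi-likelihood test (42.1%, against 8.56% of all genes tested), with a median log2 fold change of -1.86. In old inner bark 0 rose and 15 fell (39.5%, against 12.2%), with a median of -1.30. With 1 library left out, 3 to 25 fell in outer bark (7.89% to 65.8%, against 0.374% to 15.3% of all genes tested). In inner bark 5 to 23 fell (13.2% to 60.5%, against 2.54% to 17.1%). The fewest were without young outer replicate 2 and young inner replicate 4, and the most without old outer replicate 1 and old inner replicate 1. Without stem 1 of both ages 29 fell in outer bark (76.3%, against 19.4% of all genes tested). In inner bark 22 fell in that setting (57.9%, against 21.2%). By DESeq2 on all stems 30 fell in outer (78.9%, against 16.2%) and 23 in inner bark (60.5%, against 18.4%). At an unadjusted p under 0.05, edgeR placed 0 higher and 31 lower in outer bark, and 0 higher and 23 lower in inner bark. In either direction that was 81.6% in outer bark, against 33.8% of all genes tested, and 60.5% in inner bark, against 38.6%. Of all genes tested, 4212 were higher and 4828 lower in outer bark, and 4890 higher and 5130 lower in inner bark. The difference between the 2 gene sets was not tested.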
